A study of Mus musculus with 4 samples.

Results

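Metalloproteases of the MMP, ADAM and ADAMTS families, the related ADAMTSL proteins and the TIMP inhibitors were followed across 4 cultures of p53-/- mouse fetal liver progenitor cells. The members are the genes whose platform symbol is Mmp, Timp, Adam, Adamts or Adamtsl followed by a number and, for some, a letter, each read from its brightest probe set that names a single gene. This gave 70 genes of 18193 named on the array. Of these, 34 had a signal above a floor of 20% of the array's trimmed mean (a signal of 100.001) on at least 1 array, and 36 did not.

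All 4 cultures lack p53 and came from purified fetal liver progenitors, cells that can form hepatocytes and bile duct cells. The reference culture is labelled non-transformed, and each of the others carries the name of an oncogene: H-RasV12 (H-Ras locked in its active state), myr-Akt (AKT1 kept at membranes through a lipid tail) or c-Myc, a transcription factor that drives growth. The series' design text speaks of transformation by the 3 factors, while each label names 1, and the age, strain, clonality and promoter of the introduced genes were not stated in these sources. Every culture grew in serum with 20 ng/ml EGF, 50 ng/ml HGF, insulin and dexamethasone, a glucocorticoid. Each culture was measured on 1 Affymetrix array, so no value below has a replicate, a standard error or a test, and every difference is between arrays and not between conditions with a known spread.

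Matrix metalloproteinases (MMPs) are zinc enzymes that cut collagens, other matrix proteins and many secreted factors, and most are made as inactive precursors. ADAMs are membrane proteins, many of which shed the outer parts of growth factors, receptors and adhesion molecules. ADAMTS enzymes are secreted and cut proteoglycans, procollagens and other matrix proteins, ADAMTSL proteins resemble them without the protease domain, and TIMPs block the active sites of these enzymes. In the liver, some of these genes are known from stellate cells, fibroblasts and mesothelium, where they take part in building and breaking down scar matrix.

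The labels c-Myc and myr-Akt were set against the genes they name, and the label H-RasV12 was not checked in this way. Myc had its lowest signal, 420.6, on the array labelled c-Myc, against 2285 in non-transformed cells, and Akt1 was 2834 with myr-Akt and 2991 with c-Myc. It was not stated whether these probe sets can see an introduced transgene, so cultures are called by their labels and each direction rests on the label. The 5′ to 3′ ratio of the beta-actin control lay between 0.846 and 0.907. Between 9492 and 10216 genes were above the floor on an array, and 33 members were so in non-transformed cells, 24 on the array labelled H-RasV12 and 26 on each of the others. The values measure a whole culture, in which fewer cells of a type and less RNA per cell cannot be told apart.

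The members were mostly highest in non-transformed cells, and which of them were lower differed by culture. Of the 34 measured members, 21 (61.8%) had their highest deposited signal in non-transformed cells, against 30.8% of all 10679 measured genes. Of the 21, 5 were above the floor there alone and could only be highest there. The inhibitor genes Timp1 and Timp2, the sheddase gene Adam19 and the MMP genes Mmp10 and Mmp23 stayed within 2-fold of non-transformed cells with H-RasV12 and were at least 2-fold lower with myr-Akt and with c-Myc. The proteoglycan-cutting Adamts1 and Adamts5 were lowest on the array labelled H-RasV12. Those 2 genes and Mmp2, Mmp14, Timp3, Adamts7 and Adamts12 were at least 2-fold lower on all 3 transformed arrays. Mmp3 was so by bounds alone, as it passed the floor only in non-transformed cells and could come out only level or lower. The sheddase genes Adam10 and Adam17 were within 2-fold on all 3 transformed arrays.

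**Figure D1:**
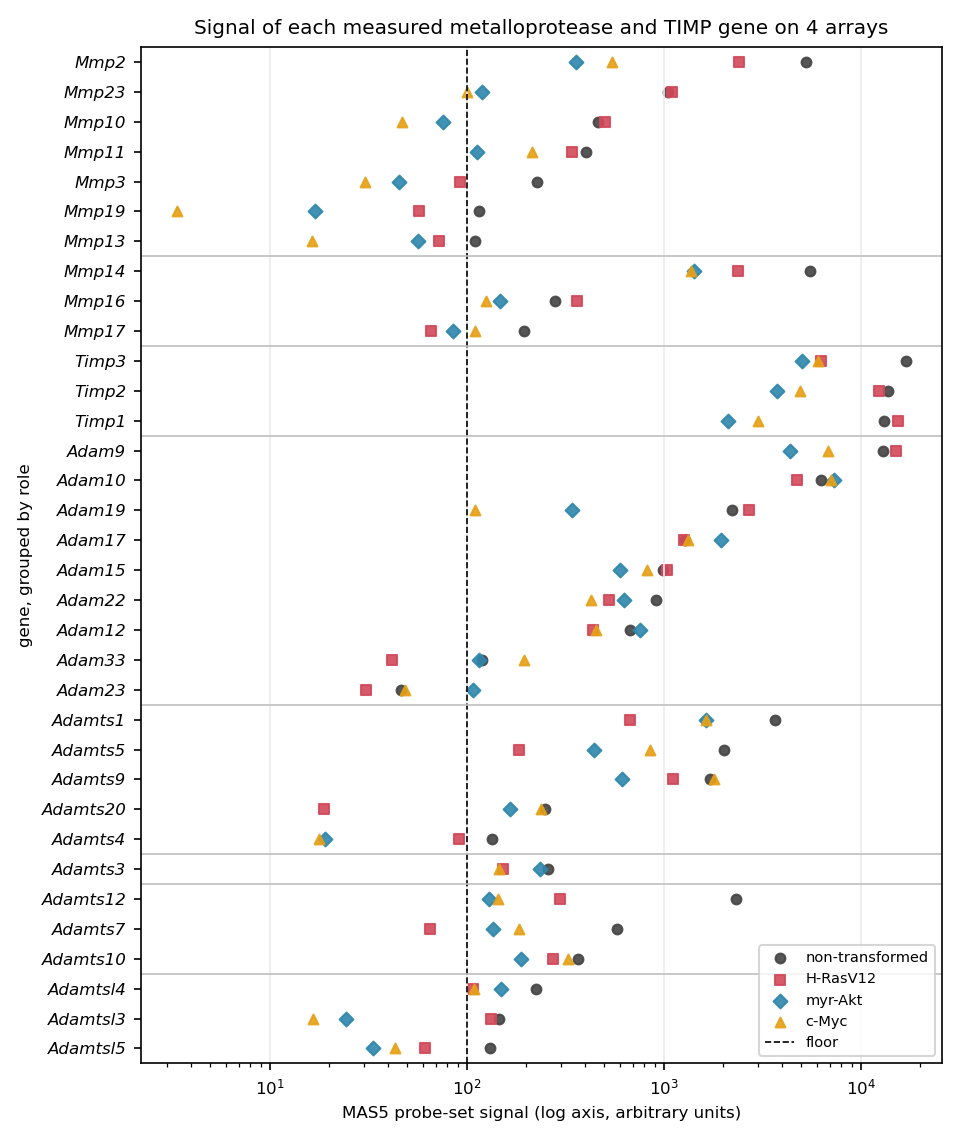
Each row is a gene, grouped by role, and each point is its MAS5 signal on 1 of 4 arrays (log axis), with the floor of 100.001 as a dashed line. The non-transformed points lie farthest right in 21 of 34 rows.

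A difference of 1 or more in log2 signal (2-fold) put a gene among the higher or the lower ones. On the array labelled H-RasV12, 10 of the 34 members were lower than in non-transformed cells (29.4%) and 0 higher, where 6.27% of all measured genes were lower and 2.08% higher. With myr-Akt, 16 were lower (47.1%) and 0 higher, against 12.7% and 4.9% of all genes. For c-Myc, 16 were lower (47.1%) and 0 higher, against 11.3% and 4.42%. The 3 comparisons share the non-transformed array, so a high reading there lowers all of them together. The members' median log2 difference was -0.42, -0.97 and -0.91 in that order, and that of all genes was 0.00, -0.02 and 0. The filter plays a part in these counts: 5 members (Mmp3, Mmp13, Mmp19, Adamts4 and Adamtsl5) were above the floor in non-transformed cells alone and could come out only level or lower. Scaling the arrays to a common median left 10 members lower with c-Myc, where 7.7% of all genes were lower. It took Timp3 (log2 difference -0.85), Adamts1 (-0.80), Adamts5 (-0.90), Adam22 (-0.73), Mmp16 (-0.81) and Adamtsl4 (-0.69) out of that count.

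**Figure D2:**
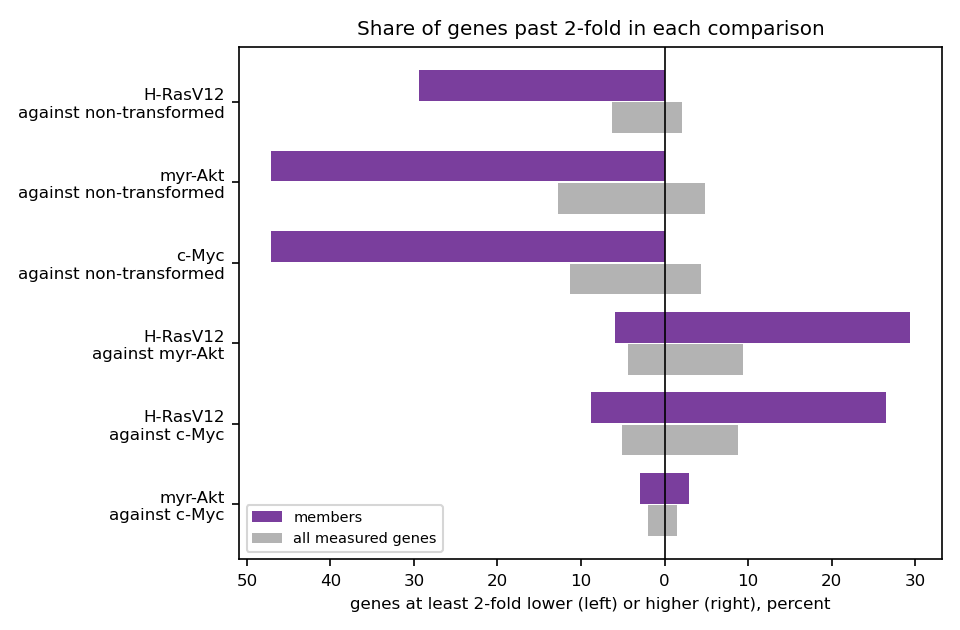
Bars give the percent of genes at least 2-fold lower (left) or higher (right) in each of 6 comparisons between arrays, for the 34 measured members and for all 10679 measured genes. Against non-transformed cells the members' bars reach 29.4%, 47.1% and 47.1% to the left and have no right side.

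All 3 measured TIMP genes were highest in non-transformed cells or with H-RasV12. Timp1, which encodes a secreted inhibitor with growth-promoting activity, gave 13086 in non-transformed cells, 15433 with H-RasV12, 2126 with myr-Akt and 3007 with c-Myc (MAS5 signal). The first pair lies well above the second. Against non-transformed cells Timp1 was 6.15 times lower with myr-Akt and 4.35 times lower with c-Myc, and its log2 difference with H-RasV12 was 0.24. Timp2, whose product both inhibits MMPs and helps MT1-MMP activate pro-MMP2, had signals of 13821, 12343, 3775 and 4947 in the same order. It was split the same way, 3.66 times lower with myr-Akt and 2.79 times lower with c-Myc, and all 5 of its probe sets above the floor had the non-transformed and H-RasV12 signals above the others. Timp3, which is held in the matrix and inhibits ADAM17 and aggrecanases as well as MMPs, had signals of 16923, 6322, 5054 and 6093. It stood apart in non-transformed cells alone: it was 2.68 times lower with H-RasV12, 3.35 times with myr-Akt and 2.78 times with c-Myc. Timp4 was under the floor on every array, at 37.2 or less.

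**Figure D3:**
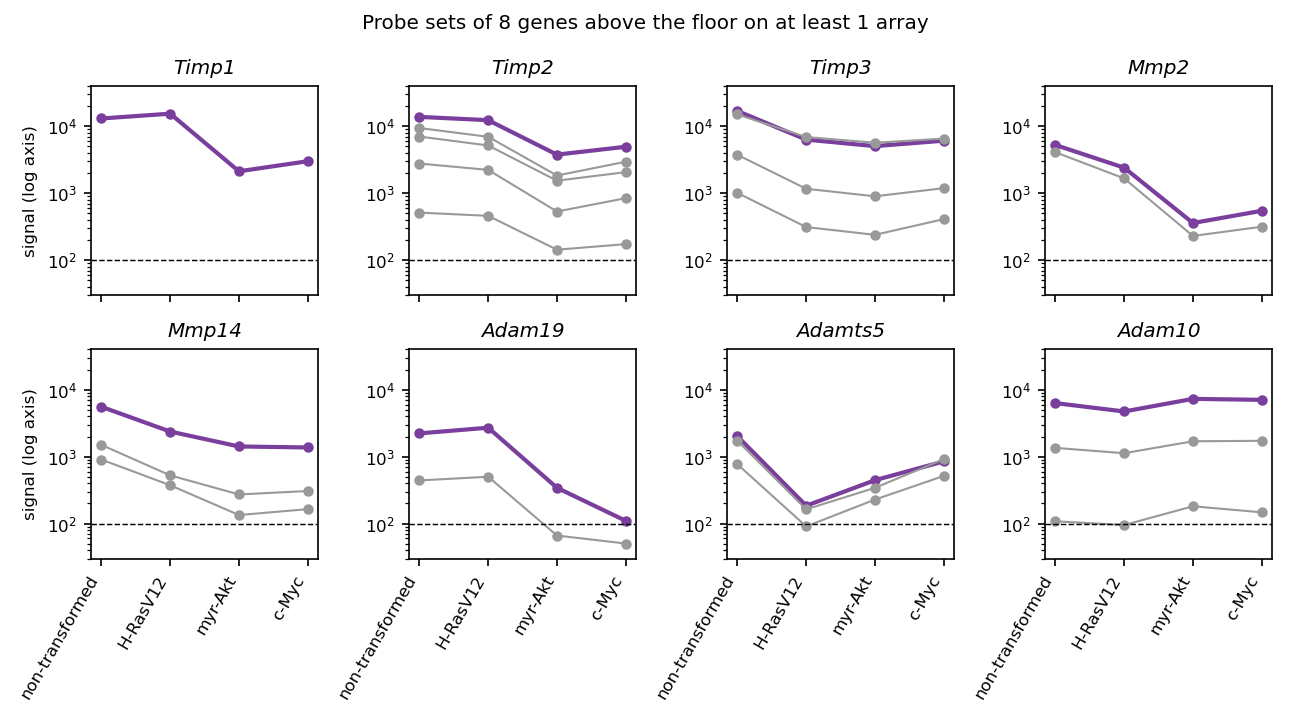
Signals (log axis) of every probe set above the floor on at least 1 array are shown for 8 genes across the 4 arrays, the brightest in purple and the others in grey, with a line joining the values of a probe set and the floor dashed. Every line of Timp3, Mmp2 and Mmp14 is highest in non-transformed cells, every line of Timp2 is higher on the first pair of arrays than on the second, Adamts5 dips on the array labelled H-RasV12, and Adam10 is nearly level.

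Mmp2 and its activator Mmp14 were lower on all 3 transformed arrays. Mmp2, a gelatinase that also cuts type IV collagen of basement membranes, gave 5254 in non-transformed cells, 2406 with H-RasV12, 358.8 with myr-Akt and 546.3 with c-Myc. Its 4 values fall into a high, a middle and a low level, with differences from non-transformed cells of 2.18 times, 14.6 times and 9.62 times lower. Its other probe set gave log2 differences of -1.30, -4.15 and -3.70. Mmp14, which encodes the membrane-bound collagenase MT1-MMP, had signals of 5559, 2375, 1422 and 1373, so it was 2.34, 3.91 and 4.05 times lower. Between the H-RasV12 and myr-Akt arrays Mmp2 differed by 6.70 times, whereas Mmp14 did not reach 2-fold.

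Of the other membrane-type MMPs, Mmp16 (MT3-MMP) had signals of 280.6 in non-transformed cells, 361.6 with H-RasV12, 148.5 with myr-Akt and 125.2 with c-Myc. It was 2.24 times lower with c-Myc than in non-transformed cells, and 2.44 and 2.89 times higher with H-RasV12 than with myr-Akt and c-Myc. The next probe set of Mmp16 gave those differences in the same direction but under 2-fold, at log2 values of -0.45, 0.57 and 0.67. A further probe set, near the floor, was at 111.4, 100.5, 136.7 and 96.1 in the same order of arrays. There the H-RasV12 signal lay below those of non-transformed cells and myr-Akt. Mmp17, a GPI-anchored member, was at 195.5 in non-transformed cells and at 66.1 with H-RasV12, 85.2 with myr-Akt and 110.8 with c-Myc. It was at least 1.95 times lower on the first pair, where it lay under the floor, and 1.76 times lower with c-Myc. Mmp24 was under the floor on all arrays.

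Mmp23, which encodes a short MMP released from a membrane anchor and counted here with the secreted enzymes, had the widest measured gap of the MMP genes between transformed cultures. Its signal was 1049 in non-transformed cells and 1108 with H-RasV12, against 119.7 with myr-Akt and 100.1 with c-Myc. That placed it 8.77 and 10.5 times below non-transformed cells on the last pair, both values close to the floor. Mmp11 (stromelysin-3, known from stromal cells of tumours) had signals of 403.5, 341.3, 112.8 and 215.4, and was 3.58 times lower with myr-Akt, while its difference with c-Myc was -0.91 on the log2 scale.

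The stromelysin genes Mmp3 and Mmp10 and the collagenase gene Mmp13 lie in a run of 10 neighbouring Mmp genes on chromosome 9 of the RefSeq table. The stromelysins cut proteoglycans, fibronectin and the precursors of other MMPs. Mmp10 reached 462.6 in non-transformed cells and 501.7 with H-RasV12, and was under the floor with myr-Akt (75.9) and c-Myc (47.1). It was thus at least 4.63 times lower on each of these than in non-transformed cells, and at least 5.02 times lower than with H-RasV12. Mmp3 was above the floor in non-transformed cells alone, at 227.6 against 92.9, 45.3 and 30.6, and so at least 2.28 times lower on the others. Mmp13 reached 110.0 in non-transformed cells and 72.6, 56.8 and 16.5 elsewhere, too near the floor for a difference. Of the other 6 members in the run (Mmp1a, Mmp1b, Mmp7, Mmp8, Mmp12 and Mmp20), none was above the floor on any array.

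Promoters of these genes are known to carry sites for AP-1, the FOS and JUN dimer that binds TGANTCA, and PEA3 sites (AGGAAG) for ETS factors, both of which respond to RAS and MAPK signalling. They are shown here because the measured genes of the run include Mmp10, which was near its non-transformed level with H-RasV12, and Mmp3, which was not. The sequences are the 150 bases before the RefSeq gene start on GRCm38.p6, plus strand, with TGANTCA in capitals: Mmp3 at chr9:7445672-7445821, Mmp10 at chr9:7502192-7502341 and Mmp13 at chr9:7272364-7272513. The promoter of Timp1 at chrX:20870016-20870165, plus strand, follows with AGGAAG in capitals, as the gene split by the same line as Mmp10.
Mmp3: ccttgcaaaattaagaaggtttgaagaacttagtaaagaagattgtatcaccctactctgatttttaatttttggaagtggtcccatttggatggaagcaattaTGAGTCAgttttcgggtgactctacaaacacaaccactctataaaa
Mmp10: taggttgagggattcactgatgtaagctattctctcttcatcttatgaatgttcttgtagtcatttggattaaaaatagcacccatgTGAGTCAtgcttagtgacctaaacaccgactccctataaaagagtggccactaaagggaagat
Mmp13: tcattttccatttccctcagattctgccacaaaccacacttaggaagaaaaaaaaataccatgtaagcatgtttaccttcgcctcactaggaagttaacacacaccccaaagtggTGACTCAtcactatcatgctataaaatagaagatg
Timp1: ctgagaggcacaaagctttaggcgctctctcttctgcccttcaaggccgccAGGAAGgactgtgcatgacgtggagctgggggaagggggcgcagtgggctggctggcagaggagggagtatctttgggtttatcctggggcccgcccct

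The match begins 46 bases before the start in Mmp3, 63 in Mmp10 and 35 in Mmp13. In windows of 300 bases (250 before the start to 50 after, both strands searched), 7.81% of 32851 RefSeq promoters hold TGANTCA. All 9 members of the chromosome 9 run have such a window, and 8 of them hold the letters, against 3 of the 32 other members with a window (Adam19, Adam1b and Adam25). The 8 were counted per gene, where Mmp7 and Mmp12 have more than 1 window and hold the letters in 1. AGGAAG is commoner, in 35.4% of all windows and in those of 17 of 41 members, including Timp1, Timp3, Mmp14, Adam10, Adam17, Adam19 and Adamts12. These letters are shared by genes that were level, lower or under the floor, no match of one motif overlapped the other in the members' windows, and a match is no measure of binding. Mmp2, Adamts5 and Adam9 have no window in the table used.

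Among the ADAM genes, 9 of 28 were measured above the floor. Adam19, a sheddase of neuregulin known from heart and muscle, differed most with c-Myc. Its signal was 2229 in non-transformed cells and 2711 with H-RasV12, but 343.2 with myr-Akt and 110.2 with c-Myc. Those values are 6.50 and 20.2 times below non-transformed cells, and Adam19 was also 3.11 times lower with c-Myc than with myr-Akt. The next probe set, with signals of 441.9, 501.5, 66.4 and 50.4, was lower by at least 2.14 on the log2 scale on both of the last arrays, and could not show a difference between them. With the mean over probe sets that difference was 0.82 on the log2 scale, under 2-fold.

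Adam9, which encodes a widely expressed sheddase that also binds integrins, was at 13008 in non-transformed cells, 15063 with H-RasV12, 4404 with myr-Akt and 6857 with c-Myc. It was 2.95 times lower with myr-Akt, and with c-Myc its log2 difference was -0.92, just short of 2-fold. Between the H-RasV12 array and the other 2 transformed arrays it differed by 3.42 and 2.20 times.

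The main sheddases of Notch receptors and of EGF-family ligands and TNF, Adam10 and Adam17, differed little. Adam10 signals were 6314, 4736, 7311 and 7065, so the array labelled H-RasV12 was the lowest and the largest log2 difference from non-transformed cells was -0.41. For Adam17 the signals were 1280, 1264, 1961 and 1328, with only the myr-Akt value apart, by 0.61 on the log2 scale. None of these differences reached 2-fold, and there is no spread between cultures to set them against.

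Adam12, known from myoblasts and activated stellate cells, had signals of 675.6, 440.5, 756.5 and 452.1, and Adam15 of 994.5, 1046, 600.3 and 820.0. Both stayed within 2-fold of non-transformed cells. Adam22, which lacks a working protease site and binds LGI proteins in the nervous system, was 913.6 in non-transformed cells and 527.8, 630.7 and 430.4 on the others, 2.12 times lower with c-Myc, or -0.93 on the log2 scale with a pseudocount and -0.86 with the mean over probe sets. Adam33 was near the floor and highest with c-Myc, at 196.7 against 120.1 in non-transformed cells and 42.0 with H-RasV12. Adam23 was above the floor with myr-Akt alone, at 107.6, and no other measured member had so low a highest signal. The nearest member outside was Adam4, at 95.3.

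Adamts1, Adamts5, Adamts7 and Adamts20 had their lowest signal with H-RasV12. Adamts5, an aggrecanase that cuts aggrecan and versican, was at 2017 in non-transformed cells, 185.0 with H-RasV12, 445.3 with myr-Akt and 849.3 with c-Myc. Each array gave a different level, with differences from non-transformed cells of 10.9, 4.53 and 2.37 times lower. Its next probe set gave log2 differences of -3.40, -2.33 and -0.91, so the last is under 2-fold there, as it was with the mean over probe sets (-0.68). Adamts1, the neighbour of Adamts5 on chromosome 16 and also a versican-cutting enzyme, had signals of 3668, 678.3, 1639 and 1647. It was 5.41 times lower with H-RasV12 and 2.24 and 2.23 times lower with myr-Akt and c-Myc. Compared directly, both neighbours were lower with H-RasV12 than with myr-Akt, by 2.42 times for Adamts1 and 2.41 times for Adamts5, and lower than with c-Myc, by 2.43 and 4.59 times.

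Adamts7 and Adamts12, related enzymes that cut the cartilage protein COMP, were lower on every transformed array. Adamts12 was at 2319 in non-transformed cells, 297.6 with H-RasV12, 130.1 with myr-Akt and 144.8 with c-Myc, or 7.79, 17.8 and 16.0 times lower. The other probe set of Adamts12 was under the floor throughout and checks nothing. Adamts7 went from 581.4 to under the floor with H-RasV12 (65.3), at least 5.81 times lower, and was 4.29 and 3.15 times lower with myr-Akt and c-Myc, at 135.6 and 184.7.

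Adamts9, a versican-cutting enzyme, was the member that set myr-Akt and c-Myc apart in the other direction from Adam19. Its signal was 1718 in non-transformed cells, 1111 with H-RasV12, 618.7 with myr-Akt and 1797 with c-Myc. The myr-Akt value alone was past 2-fold, 2.78 times below non-transformed cells and 2.90 times below c-Myc, and the next probe set gave -2.01 and -1.91 for these on the log2 scale. Adamts20, a close relative of Adamts9, was under the floor with H-RasV12 (19.0) and at 249.1, 165.6 and 237.9 on the non-transformed, myr-Akt and c-Myc arrays, at least 2.49 times lower than in non-transformed cells. Adamts3, a procollagen N-propeptidase that also activates VEGF-C, was at 260.2, 152.2, 234.8 and 146.0, and Adamts10, which binds fibrillin, at 368.9, 274.6, 187.9 and 328.4. Neither was 2-fold from non-transformed cells on any array.

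The measured ADAMTSL genes lay near the floor. Adamtsl4, a fibrillin-binding protein of the eye's lens suspension, had signals of 225.8, 108.1, 149.8 and 109.6, and was 2.09 times lower with H-RasV12 and 2.06 times lower with c-Myc, both under 2-fold when the arrays were scaled to a common median (-0.97 and -0.69). Adamtsl3 was at 145.7 and 132.8 in non-transformed cells and with H-RasV12 and under the floor on the others. Adamtsl5 (132.0), Adamts4 (134.2) and Mmp19 (115.0) were above the floor in non-transformed cells alone and could show no more than a bound short of 2-fold.

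**Figure D4:**
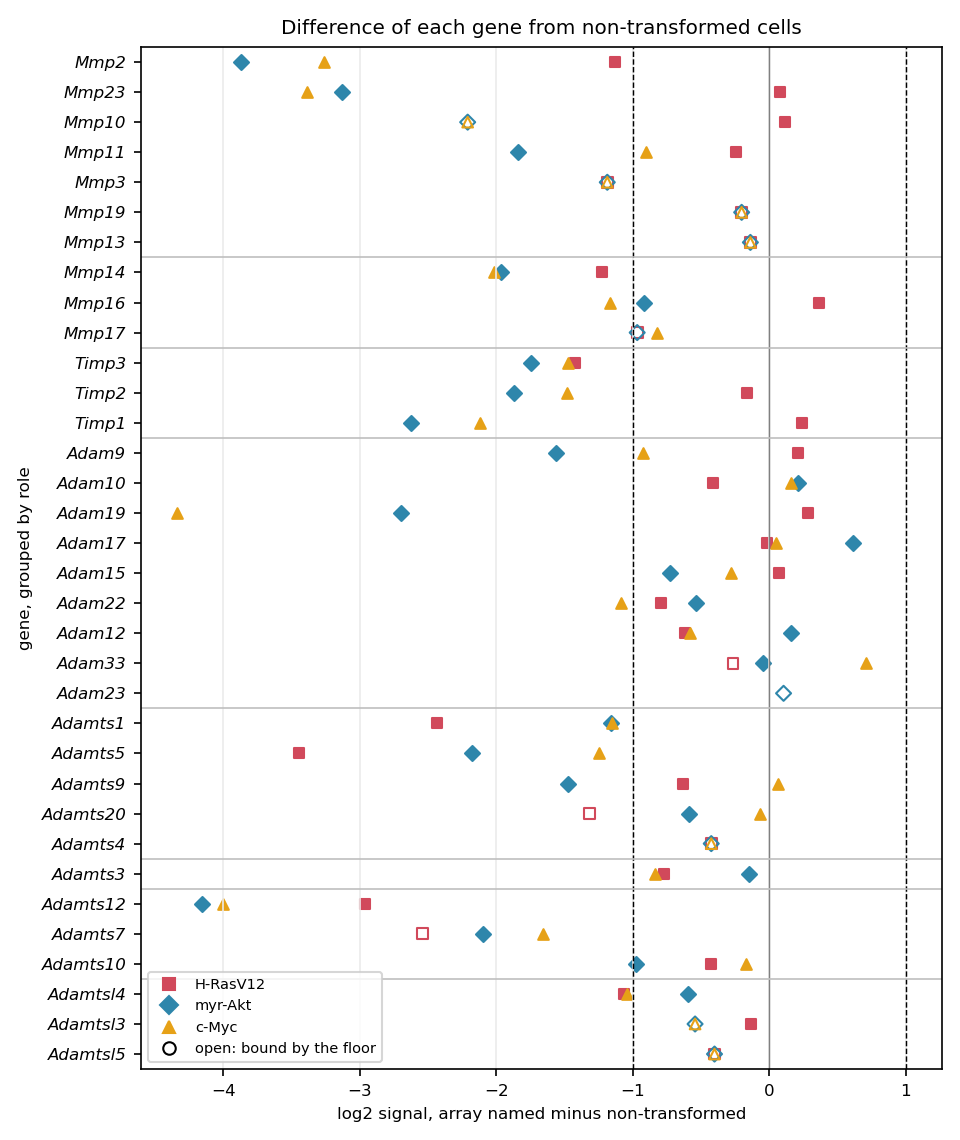
For each measured member, grouped by role, points give the log2 signal on the array labelled H-RasV12, myr-Akt or c-Myc minus that in non-transformed cells, with dashed lines at 2-fold. Open points are bounds set by the floor, and pairs at the floor on both arrays are left out. No point reaches the right dashed line, and the H-RasV12 points of Timp1, Timp2, Adam9, Adam19, Mmp10 and Mmp23 lie near 0 while their other points lie to the left.

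The transformed cultures were also compared with each other, and these differences do not use the signals of the non-transformed array. That array still counts in the choice of probe sets and in the filter. Of the 34 members, 28 were above the floor on either array in each comparison with H-RasV12, and 27 for myr-Akt against c-Myc. The 5 members above the floor in non-transformed cells alone could show no difference here. H-RasV12 against myr-Akt gave 10 members higher (29.4%) and 2 lower (5.88%), where 9.35% and 4.38% of all genes were. Higher were Mmp23 (9.26 times), Adam19 (7.90), Timp1 (7.26), Mmp2 (6.70), Mmp10 (at least 5.02), Adam9 (3.42), Timp2 (3.27), Mmp11 (3.03), Mmp16 (2.44) and Adamts12 (2.29), and Adamts1 and Adamts5 were lower. Against c-Myc, 9 were higher (26.5%) and 3 lower (8.82%), with 8.76% and 5.11% of all genes. Higher there were Adam19 (24.6 times), Mmp23 (11.1), Timp1 (5.13), Mmp10 (at least 5.02), Mmp2 (4.40), Mmp16 (2.89), Timp2 (2.49), Adam9 (2.20) and Adamts12 (2.06). Lower were Adamts5, Adamts1 and Adamts20, the last at least 2.38 times. With the mean over probe sets the Adamts12 differences were under 2-fold, at 0.60 against myr-Akt and 0.52 against c-Myc on the log2 scale, and those of Mmp16 were 0.35 and 0.55. Adamts5 against myr-Akt was then at -0.88, and Adam9 against c-Myc was at 0.88 when arrays were scaled to a common median. These comparisons share the H-RasV12 array. Between myr-Akt and c-Myc, 1 member was higher (Adam19) and 1 lower (Adamts9), or 2.94% each, where 1.53% and 2.01% of all genes were.

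Counts by role against non-transformed cells are small and were not tested against each other; of all measured genes 6.27% were lower with H-RasV12, 12.7% with myr-Akt and 11.3% with c-Myc. All 3 measured TIMP genes were lower with myr-Akt and with c-Myc and 1 with H-RasV12. Of 7 measured secreted MMPs, 2 were lower with H-RasV12, 5 with myr-Akt and 4 with c-Myc. Of 9 measured ADAMs, 0 were lower with H-RasV12 and 2 with each of the others. Of 5 measured proteoglycan-cutting ADAMTS genes, 3 were lower with H-RasV12, 3 with myr-Akt and 2 with c-Myc.

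Other genes that activate, replace or restrain these enzymes were read from lists chosen with earlier results of these data known. Of 17 measured pericellular proteases and activators (32 with a probe set), 5 were lower with H-RasV12, 9 with myr-Akt and 7 with c-Myc, and 0, 0 and 1 were higher. Of all measured genes, 6.27%, 12.7% and 11.3% were lower and 2.08%, 4.9% and 4.42% higher, shares that also stand beside the next 2 lists. Pcsk6, a proprotein convertase, had signals of 2160 in non-transformed cells, 4224 with H-RasV12, 78.8 with myr-Akt and 229.6 with c-Myc, the same split as Adam19. Bmp1, the astacin metalloprotease that removes the C-propeptide of procollagen, was at 2890, 2792, 328.8 and 389.1, and Plat, the tissue plasminogen activator, at 1510, 2352, 330.8 and 389.2. Htra1 was 3.03, 8.14 and 6.69 times lower and the serine protease gene Prss23 5.45, 10.3 and 3.87 times lower than in non-transformed cells. Pcsk5 went the other way with c-Myc, at 652.9 against 281.1, 2.32 times higher.

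Of 17 measured inhibitors and anchors (21 with a probe set), 3 were higher and 5 lower with H-RasV12, 0 and 8 with myr-Akt, and 1 and 6 with c-Myc. Pcolce, the enhancer of BMP1, was at 5442, 4691, 459.5 and 664.7, and its relative Pcolce2 at 1306, 3256, 449.2 and 407.1. Thbs2, which clears MMP2 from the cell surface, was 619.2 and 353.6 in non-transformed cells and with H-RasV12, and under the floor on the others. Serpinf1, an antiangiogenic serpin, was 5.86 times lower with H-RasV12 and at least 18.6 times lower on both other arrays. Serpinb9 had its highest signal with H-RasV12, at 1296 against 908.5 in non-transformed cells, and Thbs1 was 2.20 times lower with H-RasV12 and 3.75 times lower with myr-Akt, with a log2 difference of -0.77 with c-Myc.

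For sheddase cofactors and substrates, 35 of 41 genes with a probe set were measured, and 5 were higher and 4 lower with H-RasV12, 1 and 14 with myr-Akt, and 1 and 10 with c-Myc. Genes of this list were past 2-fold on arrays where Adam10 and Adam17 were not. The EGF-family ligand gene Ereg was at 1731 in non-transformed cells, 3589 with H-RasV12, 118.0 with myr-Akt and 49.0 with c-Myc, and Btc at 139.5, 583.0, 98.4 and 33.8. Cx3cl1, a membrane chemokine, was at 552.0, 2057, 26.4 and 36.4, and Cd44, the hyaluronan receptor, at 10918, 15410, 1466 and 1471. Vcam1 was 7.47 and 12.9 times lower with myr-Akt and c-Myc. Tspan17, a tetraspanin that escorts ADAM10, was at 554.7 and 453.6, then under the floor on both other arrays.

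Markers of cell types that such a culture could hold also differed between arrays, and not in a single pattern. Of 12 stellate and fibroblast markers, 9 were above the floor in non-transformed cells and with H-RasV12, 6 with myr-Akt and 5 with c-Myc. Their summed signal was 107824 in non-transformed cells, 58855 with H-RasV12, 62639 with myr-Akt and 50264 with c-Myc. Most of this sum came from Acta2, Col1a1, Col1a2, Col3a1 and Dcn. Of the 9 markers above the floor on any array, 4 were at least 2-fold lower with H-RasV12 than in non-transformed cells. With myr-Akt 5 were lower, and with c-Myc 6. Of all measured genes, 6.27%, 12.7% and 11.3% were lower in that order. Pdgfrb, Pdgfra and Thy1 were under the floor with myr-Akt and c-Myc, as Mmp10 was, and within 2-fold with H-RasV12. Dcn (decorin) was the reverse, 60.8 times lower with H-RasV12 and within 2-fold on the other 2, and Col3a1 was likewise 3.99 times lower with H-RasV12 alone. Des and Col1a1 were lower on all 3 transformed arrays, Col1a2 was 7.69 times lower with c-Myc alone, and Acta2 was within 2-fold on all 3.

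All 6 mesothelial markers were at least 2-fold lower with H-RasV12, where 6.27% of all measured genes were. Their summed signal there was 7368, against 37689, 33885 and 31737 on the non-transformed, myr-Akt and c-Myc arrays. Adamts1, Adamts5, Adamts7 and Adamts20 were lowest on the same array, labelled H-RasV12. Msln (mesothelin) was the 1 mesothelial marker lower on the others too, by 32.9 times with myr-Akt and 22.5 times with c-Myc. Of 4 biliary markers, Sox9 was at 388.4, 778.9, 28.4 and 36.6. It was 2.01 times higher with H-RasV12, where Mmp10 was level, and under the floor with myr-Akt and c-Myc, as Mmp10 was. Krt7 was 3.20 and 3.64 times lower with H-RasV12 and myr-Akt, and Krt19 and Epcam stayed within 2-fold. Hepatoblast and hepatocyte markers summed to 3783 in non-transformed cells, 10257 with H-RasV12, 3429.7 with myr-Akt and 3529 with c-Myc. In that order, 4, 8, 2 and 3 of them were above the floor. Much of the sums was Foxa2, at 2821, 4169, 3082 and 1472. Afp, Alb, Ttr and Hnf4a were above the floor with H-RasV12 alone. Apoa1 was 6.74 times higher with H-RasV12 and under the floor with myr-Akt and c-Myc. Dlk1 was 16.3 times higher with c-Myc, at 1898. The part of these cell types in the members' differences was not tested. All 9 neutrophil and mast cell markers and all 7 endothelial markers were under the floor on every array, as were Ptprc, Adgre1 and 7 more of 12 leukocyte markers. The leukocyte marker Cd14 was above the floor on every array and 2.53 times higher with H-RasV12 (530.0) than in non-transformed cells (209.2). Cd68 and Csf1r were above it on some arrays, at 131.4 or less and 145.4 or less. Of 6 erythroid and megakaryocyte markers with a probe set, Itga2b was above the floor on every array. Its signals were 205.7 in non-transformed cells, 164.1 with H-RasV12, 156.4 with myr-Akt and 112.6 with c-Myc. Epor was above the floor with H-RasV12 alone, at 120.4, and the rest were under it throughout.

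The 36 members under the floor on every array include enzymes best known from leukocytes and epithelia. Mmp9, the gelatinase of neutrophils and macrophages, was at 8.7 or less, Mmp8 at 25.6 or less, Mmp12 (macrophage elastase) at 18.5 or less and Mmp7 (matrilysin of glandular epithelia) at 59.1 or less. The 16 ADAM genes grouped as those of the reproductive tract or other tissues, such as the sperm genes Adam2 and Adam3, were all among them. A signal under the floor has no order here and does not show that a gene was silent.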

How the data were processed

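RNA of 4 cultures was measured on 4 Affymetrix mouse arrays, 1 per culture, and groups were taken from the labels. The authors deposited linear intensities, 1 per probe set, and the submitters' processing notes name MAS5 for them. Its version was not given in the sources used here, nor were detection calls or filters. Every array had a 2% trimmed mean of 500.003, so the deposited intensities are on a common scale.

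Signals under 20% of that mean were set to it (the floor), then log2 was taken. Of 45101 probe sets, 64 controls were left out, and 34945 named a single gene in the platform annotation. The brightest by mean signal over the arrays stood for a gene. All 70 members matched the RefSeq gene table (GRCm38.p6) by Entrez identifier, with 0 symbols changed. Genes above the floor on at least 1 array were measured. A gene at the floor on 1 side has a bound, written as at least N times. Promoters and gene order are RefSeq's on GRCm38.p6, and 41 members had a promoter window. The number of arrays limits the precision. The counting was tested on simulated data, made from genes well above the floor with a noise level set in advance. That test does not cover bounds or signals near the floor, and does not measure the noise of these arrays. Python 3.11.15 and pandas 2.3.3 were used.

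The members and gene lists were chosen with earlier results of these data known. By the rule for named genes, members above the floor may be named, and of each other list up to 6 genes past 2-fold, by their range over the arrays, together with the defining markers of each cell type. The members Mmp7, Mmp8, Mmp9, Mmp12, Timp4, Mmp24, Adam4, Adam2 and Adam3, among others, are named without a fold. Alternatives were 2 other floors, a pseudocount of 100, other choices of probe set, 2 other scalings and a filter on mean signal.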

Additional observations from a re-analysis of the deposited data

Results flagged for a closer look

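By their brightest probe sets, these members lay on opposite sides of non-transformed cells in 2 transformed cultures. They were at least 2-fold apart between those cultures, with all signals above the floor. With 1 array each, the difference was not tested. Against myr-Akt, the log2 signal on the array labelled H-RasV12 was higher by 3.21 for Mmp23, 2.98 for Adam19, 2.86 for Timp1, 1.77 for Adam9 and 1.28 for Mmp16. Against c-Myc it was higher by 4.62 for Adam19, 3.47 for Mmp23, 2.36 for Timp1, 1.53 for Mmp16 and 1.14 for Adam9. For Adamts9 the value with myr-Akt minus that with c-Myc was -1.54. For the 5 genes compared with H-RasV12, the excess over non-transformed cells was itself under 2-fold. The excess of Adamts9 with c-Myc was 1.05 times. Its other probe sets had c-Myc below non-transformed cells, at 517.6 against 555.5 and 133.7 against 171.4. A further probe set of Mmp16, near the floor, had H-RasV12 below non-transformed cells, at 100.5 against 111.4.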

How the results depend on the processing

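Of 68 differences of members at 2-fold or more, 0 reversed under any alternative. All 68 stayed past 2-fold with a floor at 10%, 65 with quantile normalization, 59 with a pseudocount or with the mean over probe sets, 57 with scaling to the median and 54 with a floor at 40%. Of the 40 with a further probe set, the next brightest had the same direction in 34, 29 of them past 2-fold. In 6 it was under the floor. Scaling to the median shifted all genes by 0.25 with myr-Akt and 0.31 with c-Myc (log2). It left 10 members lower with c-Myc instead of 16 and 1 higher (Adam33), where 7.7% of all genes were lower and 13.2% higher. It also gave 5 lower for H-RasV12 against c-Myc. Timp3 with c-Myc was then at -0.85 and Adamts1 at -0.85 with myr-Akt and -0.80 with c-Myc. A floor at 10% gave 1 member higher with myr-Akt, where 4.96% of all genes were. It also gave 6 lower for H-RasV12 against myr-Akt, 5 lower for H-RasV12 against c-Myc and 2 higher for myr-Akt against c-Myc. The mean over probe sets gave 1 lower for H-RasV12 against myr-Akt and 0 higher for myr-Akt against c-Myc, as did a floor at 40% for the latter. Filtering on mean signal, chosen after seeing the data, left 27 members with medians of -0.62, -1.47 and -1.09, and a pseudocount over all 70 gave -0.06, -0.11 and -0.17. Low signal limits Mmp3, Mmp16, Adamtsl4 and Adamts20, which fell short of 2-fold with a floor at 40%. So did some differences between transformed arrays. These were Mmp11 for H-RasV12 against myr-Akt, Adamts12 for H-RasV12 against myr-Akt and c-Myc, and Adam19 for myr-Akt against c-Myc. No paired analysis was possible because each group has 1 array and the labels carry no replicate numbers.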

Other observations

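Outside the rule, Adamdec1 was at 10.7 or less on every array. A probe set shared by Adam1a and Mapkapk5 was at 141.4, 136.2, 179.0 and 126.6 on the non-transformed, H-RasV12, myr-Akt and c-Myc arrays, and cannot be given to either gene.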
